A study of Mus musculus with 6 samples.

Results

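The genes of intestinal iron absorption and storage described here are Cybrd1, Slc11a2, Slc40a1, Heph, Fth1, Ftl1, Tfrc, Trf and Hamp. They were chosen by gene symbol, and all 9 were found among the 19505 genes that the arrays name. Each had 1 probe set, so no choice between probe sets was needed. RNA was measured on 6 single-colour arrays of samples labelled as colon crypt, the epithelial glands of the large bowel, from C57BL/6J mice. The 3 arrays titled PBS came from control mice, and the labels do not say what the controls received. The remaining 3 came from mice dosed orally each day for 7 days with MBELN, which are plant-derived particles resembling exosomes and obtained from the bark of mulberry. The labels give no genotype beyond the strain and no age, and they do not say that each array is a separate mouse. The p-values therefore rest on the scatter among these samples, possibly technical in part. Within each group that scatter includes large differences in tissue markers, given below, and the number of arrays limits every value.

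Enterocytes take up dietary iron at the brush border, where the reductase encoded by Cybrd1 reduces it and the transporter DMT1, encoded by Slc11a2, carries it in. Inside the cell, iron is stored in ferritin, built from heavy chains (Fth1) and light chains (Ftl1), or it leaves through ferroportin (Slc40a1), the cellular iron exporter, after which hephaestin (Heph) oxidises it. Plasma transferrin (Trf) then carries it to cells that bear the transferrin receptor (Tfrc), and the liver hormone hepcidin (Hamp) closes the route by causing ferroportin to be degraded. Iron absorption is best known from the duodenum, and the colon is a minor site.

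Before the iron genes, the arrays themselves need describing, because markers of the labelled tissue led in only 1 of the 6 arrays. The values are the authors' processed values, read as log2. A probe set is called dim in an array when it lies below the level under which 95% of the 1414 probe sets for odorant and pheromone receptors fall there, between 3.99 and 4.44 in these arrays. The median of 14 gut epithelial genes was 17.7 to 17.9 in the PBS arrays and 3.37 to 6.29 in the MBELN arrays. All 5 ileum markers were above the dim level in PBS 1 and PBS 3, with list medians of 17.1 and 18.0, against 4.76 in PBS 2. All 9 colon epithelial markers were above it in PBS 2, with a median of 16.1, against 7.86 and 8.09 in PBS 1 and PBS 3. The median of 12 heart muscle genes was 18.7 in MBELN 1 and 19.0 in MBELN 3, and 3.53 to 4.04 in the other 4 arrays. The median of 11 neuronal genes was 15.6 in MBELN 2 and 3.55 to 4.05 elsewhere. The tissue label, or the assignment of arrays to labels, may therefore not describe the RNA that was measured. Values below are given array by array, the arrays are called by their labels, and a gene said to rise or fall did so between arrays labelled PBS and arrays labelled MBELN.

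**Figure D1:**
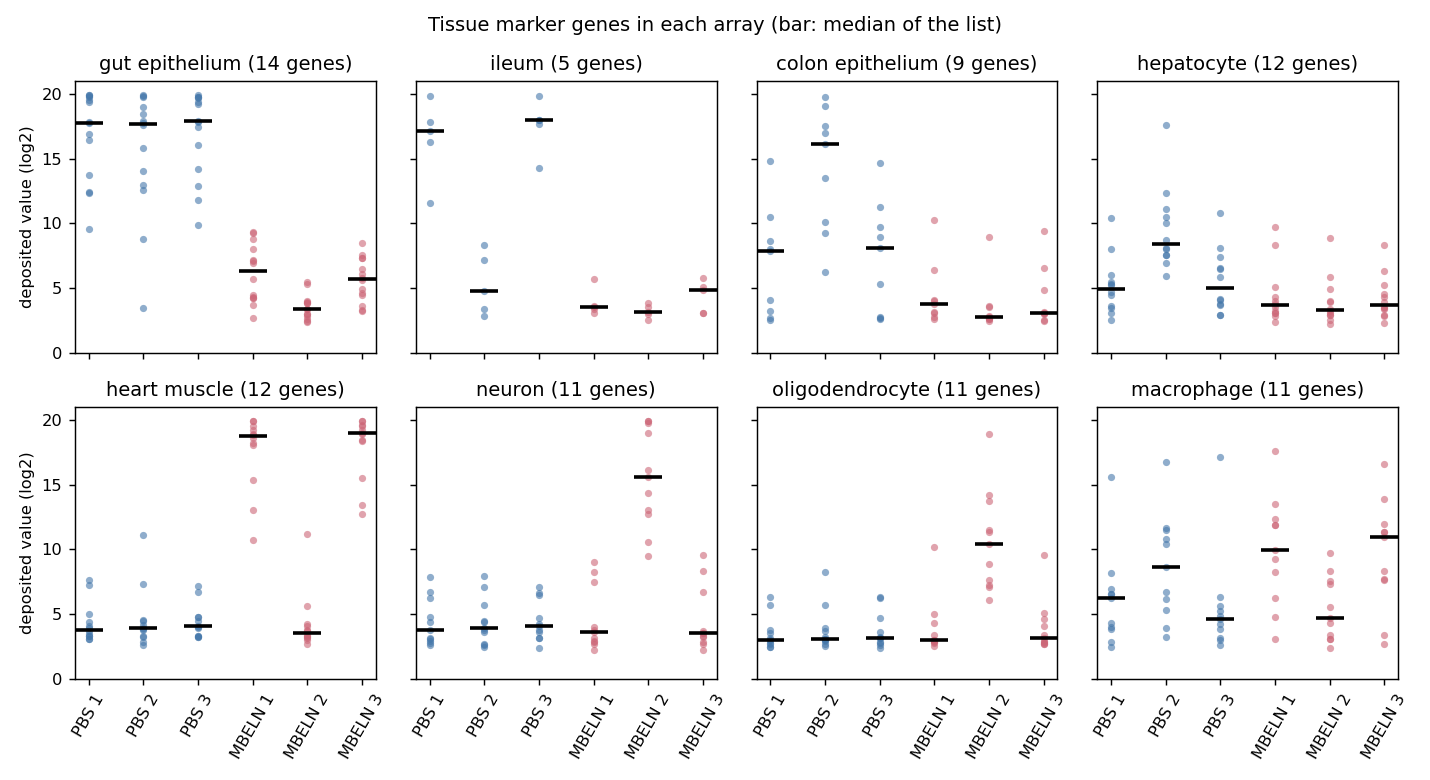
Deposited log2 values of the genes of 8 marker lists in each of the 6 arrays, with PBS in blue and MBELN in red and a black bar at the median of each list. Gut epithelial medians are 17.7 to 17.9 in PBS and at most 6.29 in MBELN, and the ileum, colon, heart and neuron lists each stand out in different arrays.

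Between the groups, 1 of the 9 iron genes passed the test and 8 did not. With limma over all 22206 transcript probe sets and a Benjamini-Hochberg adjusted p under 0.05, Heph fell and no member rose. Over all probe sets the same rule called 5.18%, with 3.76% lower and 1.42% higher in MBELN. Slc11a2, Slc40a1 and Heph had all 3 MBELN values below all 3 PBS values, and in the other 6 genes the groups overlapped. Among all probe sets, 25.3% showed no overlap, 13.4% with MBELN wholly below PBS and 11.9% wholly above. The median difference of the 9 genes was -1.86 on the log2 scale, against 0.09 over all probe sets. That median is the difference of Hamp, a gene above the dim level in 2 PBS and 0 MBELN arrays. The Hamp difference was -0.11 without PBS 2, so that value depended on 1 array. Whether the 9 genes share a fall was not tested.

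**Figure D2:**
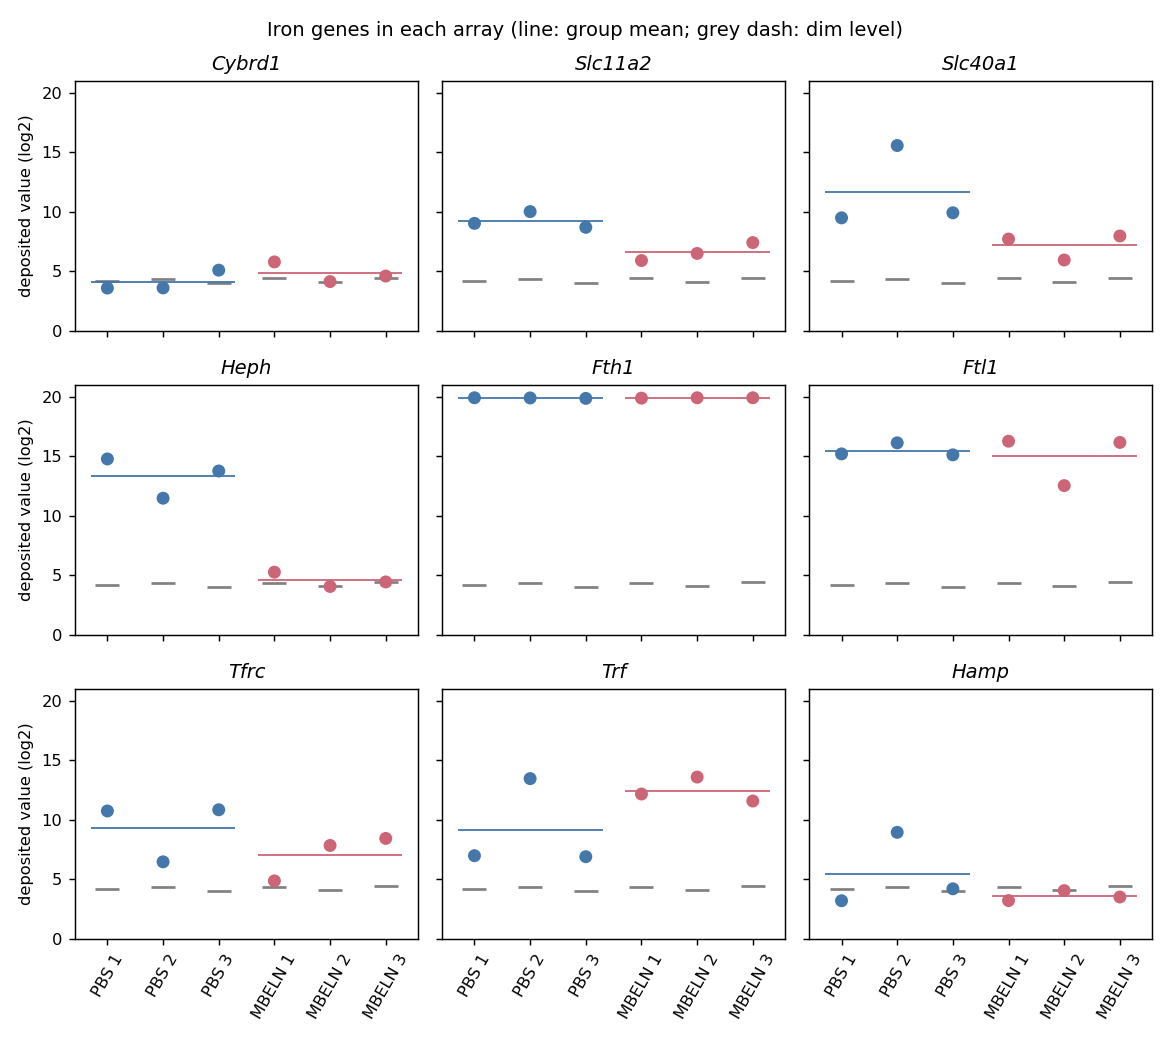
Deposited log2 value of each iron gene in each array, with PBS in blue and MBELN in red, group means as coloured lines and the dim level of each array as grey dashes. Heph is high in every PBS array and near the dim level in every MBELN array, while Slc40a1 and Hamp stand apart in PBS 2.

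Uptake at the brush border was represented by Cybrd1 and Slc11a2. Cybrd1, the duodenal cytochrome b reductase, read 3.58, 3.60 and 5.09 in PBS 1, 2 and 3, against 5.78, 4.13 and 4.59 in MBELN 1, 2 and 3. It was dim in PBS 1 and PBS 2 and above the dim level in the other 4 arrays, highest in MBELN 1, and the groups overlapped. The difference was 0.74 ± 0.63 (SE, n = 3 per group; limma, adjusted p = 0.602), with a 95% interval from -0.83 to 2.32. Of 6 duodenal markers, Pdx1 and Gkn3 were dim in all 6 arrays. Gata4 was dim in all 3 PBS arrays and in MBELN 2 and read 11.32 and 12.14 in MBELN 1 and MBELN 3. Hepacam2 read 12.5 to 14.1 in PBS and was dim in MBELN. Gata6 was above the dim level in all 6 arrays, at 7.29 to 7.84 in PBS and 9.60, 4.32 and 8.18 in MBELN 1, 2 and 3. Onecut2 read 5.05 in MBELN 2 and was dim elsewhere. The part of these markers in the Cybrd1 values was not tested.

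Slc11a2, the importer DMT1, was measured above the dim level in all 6 arrays. It read 9.03, 10.02 and 8.69 in PBS, against 5.90, 6.50 and 7.41 in MBELN. Every MBELN value was lower than every PBS value, and the highest level was in PBS 2. The difference was -2.64 ± 0.55 (log2, SE, n = 3 per group), about 6.24-fold, with a 95% interval from -4.01 to -1.28, and it missed the threshold (limma, adjusted p = 0.0598). The adjusted p lay between 0.0449 and 0.200 when each array was left out in turn, and it was under 0.05 without MBELN 2.

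Export was represented by Heph and Slc40a1. Heph, the copper oxidase that works beside ferroportin, showed the widest gap between the groups of the 9 genes. It read 14.79, 11.48 and 13.77 in PBS 1, 2 and 3, against 5.26, 4.06 and 4.44 in MBELN 1, 2 and 3. PBS 2 was the lowest of the PBS arrays, 2.80 log2 units below the mean of the other PBS arrays, and MBELN 2 was below the dim level. Heph fell by 8.76 ± 0.90 on the log2 scale (SE, n = 3 per group; limma, adjusted p = 0.00704), which is about 434-fold. The 95% interval ran from -11.01 to -6.51. With MBELN 2 dim and MBELN 3 at its dim level of 4.44, the size of the fold is limited by background.

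The fall of Heph ran beside a lower level of gut epithelial markers. The summed level of the 14 gut epithelial genes, on the log2 scale, was 22.1 to 22.5 in PBS and 7.65 to 11.3 in MBELN, and 14, 13 and 14 of them were above the dim level in PBS 1, 2 and 3, against 9, 2 and 11 in MBELN 1, 2 and 3. Their part in the fall was not tested. The MBELN arrays were also those with high heart muscle (MBELN 1 and MBELN 3) or neuronal (MBELN 2) markers. In RNA of whole samples, a different tissue, fewer cells of a type and less RNA per cell cannot be told apart. Without PBS 3, the difference of Heph was -8.55 and its call ended (limma, adjusted p = 0.0506), and with any other single array left out the adjusted p was 0.00249 to 0.0454.

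Slc40a1, the iron exporter ferroportin, was far higher in PBS 2 than in any other array. It read 9.49, 15.58 and 9.92 in PBS 1, 2 and 3, against 7.71, 5.95 and 7.97 in MBELN 1, 2 and 3. The PBS 2 value stood 5.87 log2 units above the mean of PBS 1 and PBS 3, or 58.6-fold. Groups did not overlap, and the difference was -4.45 ± 1.75 (SE, n = 3 per group; limma, adjusted p = 0.270). Without PBS 2 it was -2.50 ± 0.73, with an adjusted p of 0.158.

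Ferroportin is also known as the exporter of macrophages and hepatocytes. The macrophage list had 11 measured genes with medians of 6.22, 8.60 and 4.61 in PBS 1, 2 and 3, against 9.98, 4.70 and 10.92 in MBELN 1, 2 and 3. Of these, 7, 9 and 7 were above the dim level in PBS 1, 2 and 3, against 10, 7 and 9 in MBELN 1, 2 and 3. Among the markers of resident macrophages, Clec4f was dim in all 6 arrays, Vsig4 read 5.32 in PBS 2, 6.22 in MBELN 1 and 7.70 in MBELN 3 and was dim elsewhere, and Timd4 was above the dim level in MBELN 1 alone, at 4.76. The 12 hepatocyte genes had a median of 8.39 in PBS 2 and 3.30 to 4.99 in the other arrays. The 9 colon epithelial genes had a median of 16.1 in PBS 2 and 2.78 to 8.09 in the other arrays. The part of the macrophage, hepatocyte and colon epithelial genes in the Slc40a1 values was not tested.

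Storage was represented by the ferritin chains. Fth1, the ferroxidase chain, lay at the top of the scale in every array, at 19.93, 19.92 and 19.88 in PBS, against 19.90, 19.93 and 19.93 in MBELN. In 5 of the 6 arrays it equalled the highest value on the array, which 16 to 49 probe sets shared, and in PBS 3 it lay below 23 probe sets. Its levels at this ceiling have no readable order, and no fold is given (limma, adjusted p = 0.989). The sign of its difference, 0.01, turned under quantile normalization and under median centring.

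Ftl1, the light chain that aids mineral formation in the ferritin core, read 15.21, 16.14 and 15.13 in PBS 1, 2 and 3. In MBELN 1, 2 and 3 it read 16.28, 12.54 and 16.17. A single array was low, MBELN 2, at 3.68 log2 units below the mean of MBELN 1 and MBELN 3, or 12.9-fold. This was the array in which neuronal genes were high. The difference between groups was -0.50 ± 1.09 (SE, n = 3 per group; limma, adjusted p = 0.852), and without MBELN 2 it turned to 0.73 ± 0.40 (adjusted p = 0.310).

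Transport in plasma and uptake by cells were represented by Trf and Tfrc. Trf, the plasma iron carrier, was low in PBS 1 and PBS 3 and high in the other 4 arrays. It read 6.99, 13.47 and 6.90 in PBS 1, 2 and 3, against 12.17, 13.60 and 11.58 in MBELN 1, 2 and 3. PBS 2 stood 6.52 log2 units above the mean of the other PBS arrays, 92.1-fold, and lay next to MBELN 2. The difference was 3.33 ± 1.91 (SE, n = 3 per group; limma, adjusted p = 0.444), with a 95% interval from -1.41 to 8.08. Without PBS 2 it was 5.51 ± 0.68 and passed the threshold (adjusted p = 0.0176).

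Trf is known to be made by hepatocytes and, in the brain, by oligodendrocytes and the choroid plexus. Of 11 measured oligodendrocyte genes, all were above the dim level in MBELN 2, with a median of 10.4, and 2 or 3 in each other array, with medians of at most 3.17. Mbp, a myelin protein, read 18.89 in MBELN 2 and 3.02 to 4.72 elsewhere. Of 5 choroid plexus genes, 3, 2 and 2 were above the dim level in PBS 1, 2 and 3, against 0, 2 and 1 in MBELN 1, 2 and 3. Ttr, which is also in the hepatocyte list, read 6.01, 11.13 and 6.52 in PBS 1, 2 and 3 and 8.87 in MBELN 2. Kcnj13 read 5.98 in PBS 1 and 5.22 in MBELN 2 and was dim elsewhere. Clic6 read 7.14 to 9.44 in PBS and 4.73 in MBELN 3, while Folr1 and Otx2 were dim in all 6 arrays. Hepatocyte genes were high in PBS 2, where all 12 were above the dim level and Alb, serum albumin, read 17.59, against 5.08 to 7.37 in the other arrays. In MBELN 1 and MBELN 3, 3 and 4 of the 12 hepatocyte genes were above the dim level. Among them Ahsg read 9.70 and 8.35, Apoc3 8.34 and 6.30, and Alb 5.08 and 5.20. The part of these markers in the Trf values was not tested.

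Tfrc, the receptor that takes up transferrin, read 10.75, 6.47 and 10.85 in PBS 1, 2 and 3, against 4.87, 7.85 and 8.44 in MBELN 1, 2 and 3. PBS 1 and PBS 3 were highest and MBELN 1 lowest, and PBS 2 lay 4.33 log2 units, or 20.1-fold, below the mean of the other PBS arrays. The groups overlapped through PBS 2. The difference was -2.30 ± 1.55 (SE, n = 3 per group; limma, adjusted p = 0.516), and without PBS 2 it was -3.75 ± 1.18 (adjusted p = 0.190). In PBS 2, Trf was high and Tfrc low, and in PBS 1 and PBS 3 the order was the opposite.

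Hepcidin is encoded in the mouse by Hamp and described beside a close copy, Hamp2. Hamp was measured well above the dim level in a single array. It read 3.20, 8.95 and 4.20 in PBS 1, 2 and 3, against 3.21, 4.05 and 3.51 in MBELN 1, 2 and 3. PBS 2 was the high array, PBS 3 lay slightly above its dim level, and the other 4 arrays were dim. With all 3 MBELN arrays dim, the PBS mean was 2.20-fold above the mean of their dim levels. That ratio takes the dim PBS 1 value as read and is no strict lower bound. The fitted difference was -1.86 ± 1.52 (SE, n = 3 per group, limma, adjusted p = 0.590). Without PBS 2 it was -0.11 ± 0.48 (adjusted p = 0.932). Hamp2 read 3.46, 8.92 and 4.39 in PBS, against 3.39, 3.48 and 3.83 in MBELN. Signals of such close copies may be shared between their probe sets, so their values are uncertain as separate readings.

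The upstream sequences of both hepcidin genes are shown because they were high in the same array. Windows came from RefSeq, build GRCm38.p6, which held them for Cybrd1, Fth1, Ftl1, Tfrc and Hamp, 5 of the 9 genes, and for Hamp2. Each runs 250 bases up to the annotated start, on the minus strand, at chr7:30944030-30944279 for Hamp and chr7:30924182-30924431 for Hamp2. Capitals mark matches to the motifs searched on both strands.
Hamp: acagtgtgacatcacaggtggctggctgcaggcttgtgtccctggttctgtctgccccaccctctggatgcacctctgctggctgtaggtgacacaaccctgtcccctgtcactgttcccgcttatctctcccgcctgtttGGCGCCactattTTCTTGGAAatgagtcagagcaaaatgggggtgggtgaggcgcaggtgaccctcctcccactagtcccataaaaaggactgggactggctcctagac
Hamp2: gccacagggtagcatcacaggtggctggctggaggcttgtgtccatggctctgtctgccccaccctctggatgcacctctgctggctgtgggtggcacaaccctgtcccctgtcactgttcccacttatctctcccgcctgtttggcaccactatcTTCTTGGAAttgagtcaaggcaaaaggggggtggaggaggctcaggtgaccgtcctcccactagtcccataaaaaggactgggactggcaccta
Aligned end to end, 227 of 247 paired bases were identical, 91.9%. The Hamp window held GGCGCC, the core of the element through which BMP signals act on the gene, starting 109 bases before the start. It also held TTCTTGGAA, a match to the STAT motif TTCNNNGAA, starting 97 bases before it. The Hamp2 window held the STAT match, starting 94 bases before the start, and no GGCGCC. Cybrd1 and Tfrc also held that core, so 3 of the 5 members with a window had it. Fth1 and Tfrc had 2 windows each, and Tfrc held the core in 1 of its 2. The count is therefore per gene, while the shares that follow are per window. Over all 32851 windows of the same length, 9.59% held GGCGCC and 7.02% held TTCNNNGAA, and the matches did not overlap. Of the other motifs searched, ACGTG (hypoxia element core, in 16.6% of windows), TGACNNNGC (antioxidant element, 10.2%) and TATAA (22.8%), none was found in the Hamp window. Such matches describe letters and not binding.

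Of the 12 hepatocyte genes, 11 were highest in PBS 2, the array in which Hamp was high. Of all probe sets above the dim level somewhere, 14.4% were highest there. The colon epithelial list was also high in PBS 2, with a median of 16.1, against 2.78 to 8.09 in the other arrays. On the log2 scale the summed level of the hepatocyte genes was 17.7 in PBS 2, 10.9 and 11.3 in PBS 1 and PBS 3, and 9.11 to 10.3 in MBELN. Alb made up most of the sum in PBS 2, and without it the level was 13.5 there, 10.9 and 11.2 in PBS 1 and PBS 3, and 9.01 to 10.3 in MBELN. Apoc3 went the other way, at 7.98 in PBS 2 against 10.44 and 10.76 in PBS 1 and PBS 3. Ahsg read 10.02 in PBS 2 and also 9.70 and 8.35 in MBELN 1 and MBELN 3, where Hamp was dim. The haem and haemoglobin binding proteins Hpx and Hp, chosen after their values had been seen, read 8.76 and 10.70 in PBS 2, at most 4.13 and 5.71 in the other arrays. The part of these genes in the Hamp value was not tested.

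**Figure D3:**
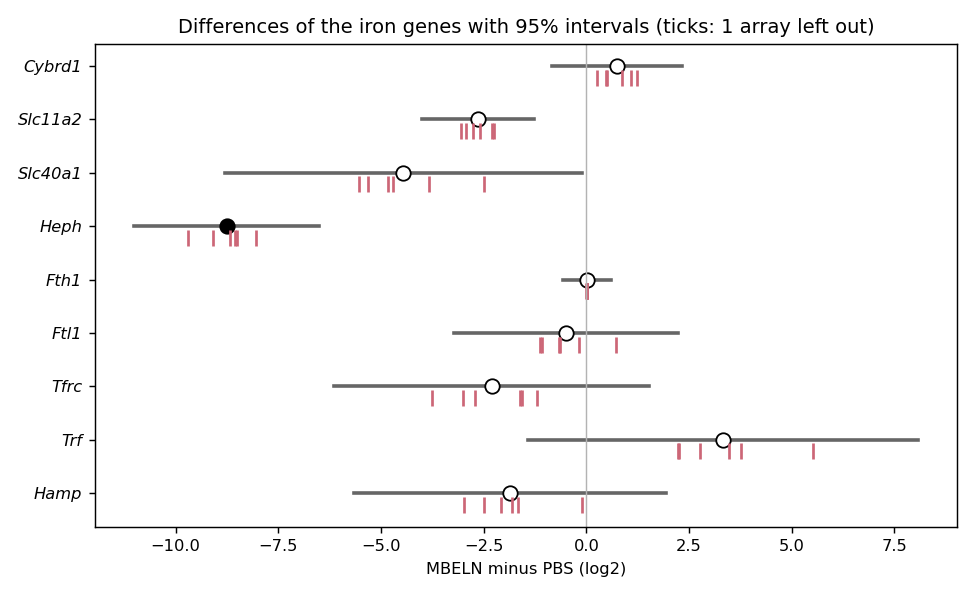
Difference between MBELN and PBS for each iron gene on the log2 scale, with the 95% interval of limma as a grey line and the values with 1 array left out as red ticks. Heph, the filled point at -8.76, passed an adjusted p of 0.05, and the ticks of Hamp, Trf and Slc40a1 spread widely, with the far tick in each case from the fit without PBS 2.

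The hybridisation controls, 4 spiked transcripts, had means of 9.79 to 10.1 in PBS 2, MBELN 1 and MBELN 3 and of 8.43 to 8.98 in the other arrays. The groups were also compared inside each level, which leaves PBS 2 the single control in the higher one and MBELN 2 the single treated array in the lower one, with a spread borrowed from the rest. The difference of Heph was -6.63 and -10.22 in these levels, that of Slc11a2 was -3.36 and -2.36, and that of Slc40a1 was -7.74 and -3.76. Each of these comparisons has 1 array in an arm and no replicate check of that arm, so the values are given as descriptions, from fits that called 18.8% and 32.6% of all probe sets. The difference of Trf was -1.59 and 6.66, that of Tfrc 0.18 and -2.95, and that of Hamp -5.59 and 0.35, with opposite signs in the levels. Ftl1 gave 0.09 and -2.63, and Cybrd1 1.59 and -0.21. The level divides the arrays as the ileum and colon markers divide PBS and the heart and neuron markers divide MBELN, so level and marker content cannot be told apart.

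With PBS 2 and MBELN 2 left out, a choice made with the values in view, 6 of the 9 genes passed the threshold, 4 lower and 2 higher, where 30.5% of all probe sets passed. Slc11a2 (-2.20 ± 0.52), Slc40a1 (-1.87 ± 0.34), Heph (-9.43 ± 0.47) and Tfrc (-4.14 ± 1.02) fell. Trf rose by 4.94 ± 0.35 and Ftl1 by 1.06 ± 0.31 (log2, SE, n = 2 per group; limma, adjusted p = 6.9e-05 and 0.0420). Heart muscle medians were 18.7 and 19.0 in these MBELN arrays and at most 4.04 in these PBS arrays, and their part was not tested.

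The number of iron genes called was read against the share of all probe sets called in the same limma fit. It was 1 with quantile normalization (5.1% of all probe sets), with median centring (5.23%), with a trended robust variance (3.9%), with pairing by array number (2.05%) and at a threshold of 0.01 (1.83%). It was 1 also without PBS 1 (1.7%), MBELN 1 (2.26%) or MBELN 3 (2.01%), and 0 without PBS 3 (1.71%). It was 2 without PBS 2 (7.21%, Heph and Trf), without MBELN 2 (16.8%, Heph and Slc11a2), at a threshold of 0.10 (7.98%) and with the hybridisation control level as a term (6.19%, Heph and Slc40a1). Array weights called 3, where 25.9% of all probe sets passed. Leaving out dim probe sets kept those above the dim level in every array of at least 1 group. This filter uses the groups, dropped Hamp, and let in Heph through PBS alone and Cybrd1 through MBELN alone. It called 2 of the 8 members left, where 13.3% of 11049 passed.

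Further genes of iron handling were taken from 6 lists by role, 74 measured of 79 symbols, with older names of Hjv and Erfe among the symbols. With limma, 3 were called higher and 1 lower in MBELN, and 70 were not called, 5.41% called against 5.18% of all probe sets. Their median difference was 0.11, against 0.09 over all probe sets. Of the 74, 9 were dim in every array. The share called was thus close to that of the whole array.

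**Figure D4:**
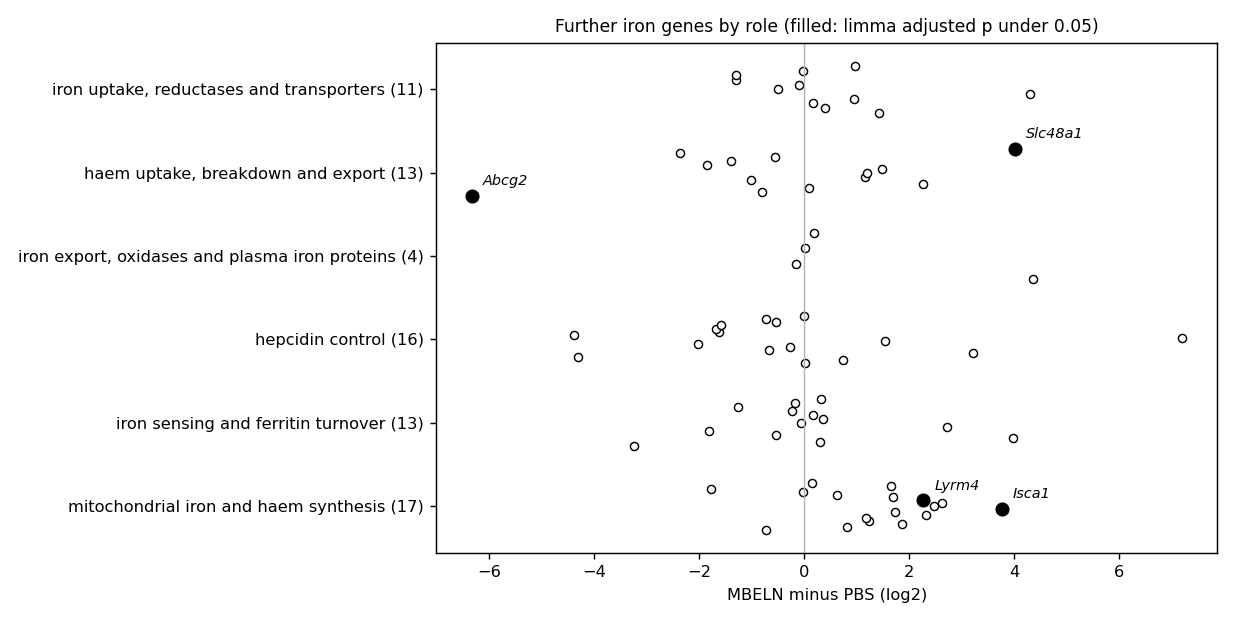
Difference between MBELN and PBS on the log2 scale for the 74 further iron genes, 1 point per gene, grouped by role with the number of genes in brackets. Slc48a1, Lyrm4 and Isca1 to the right and Abcg2 to the left, the filled points, passed an adjusted p of 0.05.

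Among 13 genes of haem uptake, breakdown and export, 1 rose and 1 fell, 15.4% called against 5.18% of all probe sets, and the median difference was -0.55. Slc48a1, which moves haem out of endosomes and lysosomes, read 7.53, 7.25 and 7.52 in PBS, against 10.65, 12.43 and 11.25 in MBELN. It rose by 4.01 ± 0.51 (log2, SE, n = 3 per group; limma, adjusted p = 0.0130), without overlap, and the call ended without PBS 1, PBS 3 or MBELN 3 (0.0744, 0.0734 and 0.0614). Abcg2, an efflux pump that also carries porphyrins, read 16.06, 12.41 and 15.32 in PBS, against 9.81, 6.95 and 8.04 in MBELN. It fell by 6.33 ± 1.19 (adjusted p = 0.0444), beside the gut epithelial list. Its call ended without PBS 1, PBS 3, MBELN 1 or MBELN 3, with adjusted p-values of 0.169, 0.186, 0.0841 and 0.159. Hmox2, the constitutive haem oxygenase, had a difference of 1.48 ± 0.35 (adjusted p = 0.0863). Slc46a1, a folate transporter that also carries haem, was named after its values had been seen. It read 11.14 in PBS 2 and at most 4.29 elsewhere, the same single array as Hamp.

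Among 17 genes of mitochondrial iron and haem synthesis, 2 rose and none fell, 11.8% called, where 1.42% of all probe sets were called higher and 3.76% lower. The median difference was 1.65, against 0.09 over all probe sets. By array, the list medians were 7.25, 6.55 and 8.17 in PBS 1, 2 and 3. In MBELN 1, 2 and 3 they were 8.45, 7.48 and 8.67. MBELN 2 thus lay below PBS 3, and the highest medians were in the arrays with high heart muscle markers. Isca1, an iron-sulphur cluster assembly protein, read 10.19, 9.95 and 9.65 in PBS, against 14.00, 12.35 and 14.74 in MBELN, a rise of 3.77 ± 0.65 (log2, SE, n = 3 per group; limma, adjusted p = 0.0345). Lyrm4, a partner of the cysteine desulphurase of cluster assembly, read 7.91, 8.39 and 8.62 in PBS, against 10.71, 10.23 and 10.80 in MBELN, a rise of 2.27 ± 0.33 (adjusted p = 0.0198). The call of Isca1 ended when any array but MBELN 2 was left out (0.0726 to 0.154), and that of Lyrm4 when PBS 1, PBS 3, MBELN 1 or MBELN 3 was (0.0739 to 0.0969). Fech, which inserts iron into haem, read 8.14, 8.73 and 8.19 in PBS, against 11.41, 8.68 and 11.91 in MBELN. It did not pass (adjusted p = 0.260), and its high arrays were those with high heart muscle markers. Of 4 measured erythroid markers, Epb42 and Klf1 were dim in all 6 arrays, and Slc4a1 was above the dim level in MBELN 3 alone, at 4.51. Alas2 read 3.91, 4.48 and 4.10 in PBS 1, 2 and 3, against 4.91, 4.49 and 6.83 in MBELN 1, 2 and 3. It was dim in PBS 1 and above the dim level in the other arrays. The part of the heart muscle and erythroid markers in the values of this list was not tested.

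No gene passed among 16 of hepcidin control, 13 of iron sensing and ferritin turnover, 11 of iron uptake and 4 of export and plasma iron. Unadjusted p-values under 0.05 in limma were found for 3, 2, 0 and 0 of them, and for 17.8% of all probe sets. Smad4, Smad1 and Bmp2, of the BMP pathway that drives hepcidin, had differences of -1.59 ± 0.32, -1.67 ± 0.37 and -4.31 ± 1.01 (log2, SE, n = 3 per group; limma, adjusted p = 0.0529, 0.0731 and 0.0845), each without overlap. In the hepcidin control list, 4 of 16 genes lay wholly lower in MBELN and 0 wholly higher, against 13.4% and 11.9% of all probe sets. Id1 was also wholly lower, with a difference of -4.38 ± 1.89 (limma, adjusted p = 0.309). Other genes of the list went both ways, and those named next were picked after their values had been seen. Bmp6 and Hfe had differences of 3.23 ± 1.56 and 1.54 ± 1.19, and Acvr1 was almost unchanged, at 0.01 ± 0.48. Bmpr1a, Smad5, Smad7 and Neo1 had differences of -0.67 ± 0.65, -0.53 ± 0.73, -0.73 ± 0.39 and -1.62 ± 0.73. None of these passed, and Hjv, also of this list, is described below. Aco1, the iron regulatory protein 1 that binds ferritin and transferrin receptor messages, read 10.66, 8.81 and 11.30 in PBS, against 7.25, 6.16 and 7.64 in MBELN, a difference of -3.24 ± 0.77 (adjusted p = 0.0854). Cp, the plasma ferroxidase related to hephaestin, read 5.76, 9.15 and 5.10 in PBS, against 13.54, 6.97 and 12.58 in MBELN. Its difference was 4.36 ± 2.03 (adjusted p = 0.344), and the groups overlapped.

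Hjv, the hepcidin co-receptor hemojuvelin, was named after its values had been seen. It read 13.27 and 13.63 in MBELN 1 and MBELN 3 and 2.14 to 2.65 in the other 4 arrays, all dim. The heart muscle list was above the dim level with 12 of 12 genes in those arrays and with 3 to 7 of 12 in the others. Slc22a17, a lipocalin receptor, read 16.85 in MBELN 2 and 3.28 to 5.43 elsewhere, beside a neuronal median of 15.6. Neither gene passed the threshold in the comparison of the groups (limma, adjusted p = 0.321 and 0.592).

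For each iron gene, the genes with the most similar pattern over the 6 arrays were taken as those with the smallest root mean square difference after each was centred on its own mean, among 13683 named genes above the dim level somewhere. For Heph these were Gucy2c, Slc39a4 and Prss30, at 0.42, 0.48 and 0.50 log2 units. For Slc11a2 they were Chmp5, Plpp5 and Vps54, at 0.27 to 0.34. For Slc40a1 they were S100g, Pla2g10 and Tat, at 0.60 to 0.64. For Hamp they were Hamp2, Insl5 and Plg, at 0.30, 0.35 and 0.40. For Ftl1 they were Grn, Rpl14 and Rassf3, at 0.11 to 0.17, and for Tfrc they were Axin2, Kif20b and Cenpe, at 0.65 to 0.82. For Trf they were Plpp3, Hk1 and Apoe, at 0.66 to 0.94. Cybrd1, dim in PBS 1 and PBS 2, was nearest to Mecr, Zbed3 and Iqcf4, at 0.15 to 0.28, and Fth1, at the ceiling, to Eef1a1, Tmsb4x and Cox7c, at 0.02 to 0.06. Tat is also in the hepatocyte list, and the distances describe these 6 arrays only.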

How the data were processed

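The authors deposited log2 values, 1 per probe set and array. That scale is inferred, from a minimum above 0 and a ceiling near 20, and is not stated. The submitters' processing notes name Transcriptome Analysis Console 4.0. Not given in the sources used here are summarization, normalization and build. The labels name biotinylated cRNA from 90 ng of total RNA and also an AmpliSeq assay, which is unresolved. Of 28846 probe sets, 6640 controls were left out. Groups came from the titles. A limma model (version 3.58.1, R 4.3.3; lmFit, eBayes) with group as its only term compared MBELN with PBS, two-sided. Its p-values were adjusted by Benjamini-Hochberg over 22206 probe sets, with a threshold of 0.05, and the procedure was tested on simulated data. The closing section gives the alternatives. Promoter windows were aligned with Biopython and figures drawn with matplotlib 3.10.9. The members and lists were chosen with earlier results of these data known. Named genes are the 9 members, up to 4 genes of smallest p per further list, the 3 nearest patterns of each member and defining genes of marker lists, and exceptions are marked. The fold given for Hamp sets the brighter mean over the mean of the dim levels.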

Additional observations from a re-analysis of the deposited data

How the results depend on the processing

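The count of all called probe sets, 1150, was 5757 with array weights, 456 with the replicate block, 407 at a threshold of 0.01, 1772 at 0.10, 6769 without PBS 2 and MBELN 2, 4174 and 7234 within the higher and lower hybridisation control level, and 377 to 3738 with 1 array left out. The count of called iron members, 1, was 2 without dim probe sets, at a threshold of 0.10 and when the hybridisation control level entered as a term, 3 with array weights, 6 without PBS 2 and MBELN 2, 4 and 6 within the levels, and 0 to 2 with 1 array left out. It was 0 without PBS 3 and 2 without PBS 2 or MBELN 2. Without dim probe sets, 8 members were left, as Hamp was dropped. The count of further iron genes, 4, was 2 with a trended robust variance, 32 with array weights, 1 with the replicate block, 0 at 0.01, 9 at 0.10, 40 without PBS 2 and MBELN 2, 29 and 22 within the levels, and 0 to 20 with 1 array left out. It was 0 without PBS 1, PBS 3 or MBELN 3, 1 without MBELN 1 and 20 without MBELN 2. The settings that use the control level, or that drop both arrays numbered 2, were chosen after seeing the data. Of 152 recomputed member differences, 121 kept direction and side of the threshold, 19 newly passed it, 1 (Heph without PBS 3) no longer did and 12 turned sign, of which Ftl1 without PBS 2 and MBELN 2 is also among the 19. Fth1 gave -0.0033 with quantile normalization, -0.0438 with median centring, -0.003 without PBS 3 and -0.0007 within the higher level. Ftl1 gave 0.80 with array weights, 0.73 without MBELN 2, 1.06 without PBS 2 and MBELN 2 and 0.0864 within the higher level. With 1 array left out, Fth1 ranged from -0.003 to 0.0224 and Ftl1 from -1.13 to 0.73. Within the higher level Tfrc gave 0.18 and Trf -1.59, and within the lower level Cybrd1 gave -0.21, Hamp 0.35 and Flvcr2 -0.23. The cause was not tested. Same-numbered arrays did not deviate together (r of -0.03, -0.07 and -0.06 across probe sets), so the replicate block pairs arrays by number alone. Under it Heph kept its call (adjusted p = 0.0283), as did Abcg2 (0.0310), while Slc48a1 (0.0734), Lyrm4 (0.0974) and Isca1 (0.108) lost theirs. Each member has 1 probe set, so averaging probe sets changed no member value. The comparisons within a level have 1 array in an arm. Signal over background limits Cybrd1, Hamp and the MBELN values of Heph, and the ceiling of the scale limits Fth1.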
